A study of Mus musculus with 15 samples.

Results

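Wild-type epidermis was compared with wild-type tongue of newborn mice at postnatal day 1, across all genes of an RNA-seq count table. The members were the libraries whose titles give wild-type epidermis, 3 of them, and wild-type tongue, 4 of them, together 7 of the 15 libraries of the series. Of 23420 mouse genes in the table, 16577 had enough reads in these libraries to be tested. The other 8 libraries, 4 of epidermis and 4 of tongue, came from mice in which all 7 HAT/DESC protease genes of the Tmprss11 cluster were disrupted by gene editing, and they served here only as a second comparison of the same tissues.

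The wild-type mice carried no edit according to their genotype label, while the strain label of every sample, wild type included, names the Tmprss11 cluster and no inbred background. Neither tissue was treated in life. Epidermis was peeled from the dermis of frozen skin by hand after a brief heating in EDTA, whereas no step that separates the lingual epithelium from the muscle, connective tissue, vessels and nerves of the tongue is described. The epidermis values thus come from an epithelial sheet, and the tongue values hold muscle and connective tissue as well. By the animal numbers in the labels, the 7 libraries came from 5 mice, of which 2 gave both tissues, and p-values measure the spread between these few mice.

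Both tissues are covered by stratified squamous epithelium, in which basal cells that express Krt5 and Krt14 divide, move outward and differentiate. In epidermis the suprabasal cells make Krt1 and Krt10, the filaggrins and a cornified envelope sealed by acylceramides, which holds water in the body. The epithelium of the tongue makes Krt4 and Krt13 between its papillae and hair-type hard keratins in the filiform papillae, and beneath it lies a mass of striated muscle.

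The 7 libraries held between 10117819 and 17045801 reads assigned to genes. Mitochondrial ribosomal RNA took 20.1 to 44.62% of them in epidermis and 35.5 to 40.8% in tongue (exact permutation test, two-sided, p = 0.286, where 0.0286 is the smallest p that 3 against 4 libraries allow). The first principal component held 88.1% of the variance and separated the tissues, and the second, with 8.05%, set epidermis WT 1 apart from the other libraries. Epidermis WT 1 had the highest mitochondrial ribosomal share and a lower summed level of ribosomal protein genes (1893, 6387 and 5984 CPM in epidermis WT 1, 2 and 3, where CPM is a read count scaled to the size of the library). Means are given ± SD over the 3 epidermis or 4 tongue libraries, and log2 fold changes ± SE. Calls of the genes named here that change without epidermis WT 1 are given beside them. The labels do not give sex, and the male-specific transcripts of Ddx3y, Eif2s3y, Kdm5d and Uty were high in all 3 epidermis libraries and in tongue WT 3 and 4, while Xist was high in tongue WT 1 and 2. Xist had 0.911, 40.25 and 49.31 CPM in epidermis WT 1, 2 and 3 and 765.8, 792, 26.04 and 13.04 CPM in tongue WT 1 to 4. Ddx3y had 9.682 and 2.85 CPM in tongue WT 1 and 2, so low levels of the other marker were present in most libraries. The tissues were thus not balanced in this respect, and its part in the differences was not tested. Epidermis WT 2 and 3 and tongue WT 3 and 4, all high in the male-specific transcripts, are compared alone further below.

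Of the 16577 genes, 10540 differed between the tissues at an adjusted p under 0.05 (edgeR quasi-likelihood test, Benjamini-Hochberg over all tested genes), which is 63.6% of them. The 5307 genes higher in epidermis made up 32% and the 5233 higher in tongue 31.6%, and every count of a gene list given here stands against these shares. The CPM values of the tissues did not overlap for 65.8% of the genes. Fold changes are log2 of epidermis over tongue, so positive values are higher in epidermis. The median over all tested genes was 0.03. Large differences lay more often on the tongue side, where 2593 genes were called at least 4-fold higher and 952 at least 32-fold, against 1442 and 219 in epidermis, and the median of the called genes was 1.35 in epidermis and -1.97 in tongue. At 0 reads in all 3 epidermis libraries were 138 genes called higher in tongue, and at 0 in all 4 tongue libraries were 47 called higher in epidermis. The knockout libraries, which share no sample with the wild-type ones, gave 5354 genes (32.7%) higher in epidermis and 5101 (31.1%) higher in tongue. Of 10209 wild-type calls that could be tested there, 9149 were called in the same direction and 0 in the opposite one.

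**Figure D1:**
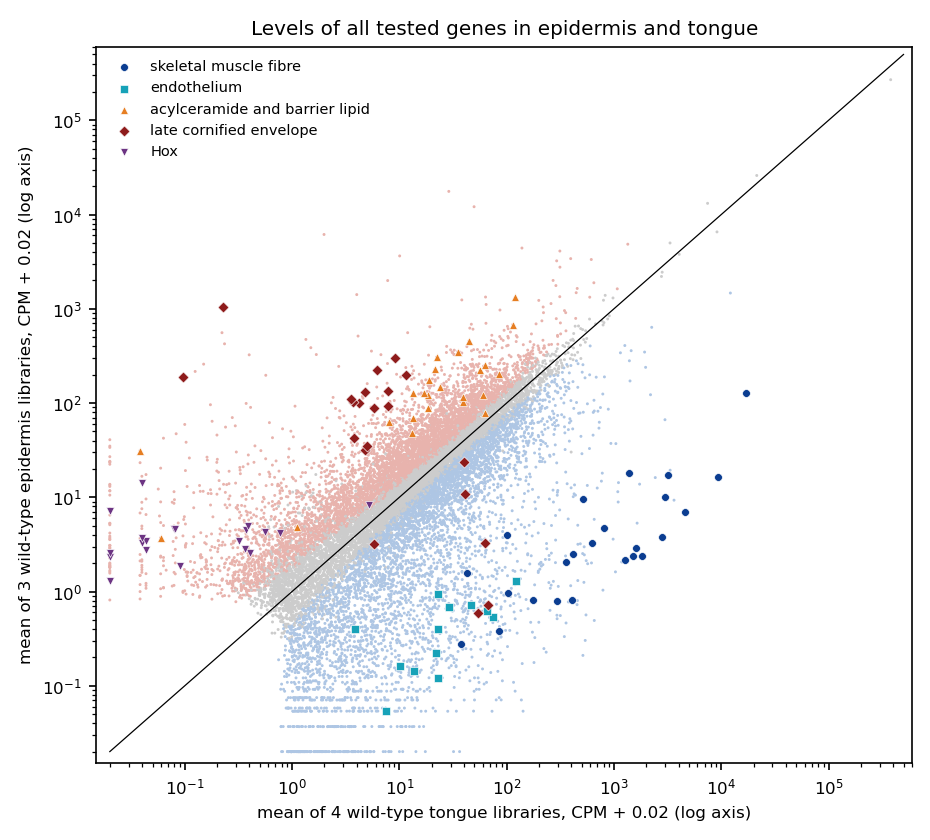
Mean level of each tested gene in the 4 wild-type tongue libraries (x axis) and the 3 wild-type epidermis libraries (y axis), in CPM + 0.02 on log axes, with the line of equal levels. Pale red and pale blue points are genes called higher in epidermis and in tongue, grey points had no call, and 5 gene lists are overlaid: muscle fibre and endothelial genes lie far to the tongue side, and late cornified envelope, barrier lipid and Hox genes mostly to the epidermis side.

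Muscle genes were far higher in tongue. All 25 fibre genes tested were higher in tongue, with a median log2 fold change of -7.58, and their summed level was 267, 140.2 and 315 CPM in epidermis WT 1, 2 and 3 and 38887, 44908, 57505 and 64532 CPM in tongue WT 1, 2, 3 and 4. Mylpf (chr7:127208890-127214298, GRCm38), the regulatory light chain of fast myosin, had 5.01, 5.4 and 10.4 CPM in the epidermis libraries and 4663, 3986, 5150 and 4731 CPM in the tongue libraries. The 4 tongue libraries all lay far above the 3 epidermis libraries, a log2 fold change of -9.37 ± 0.45 (SE), edgeR adjusted p = 2.84e-07. Among the myosin heavy chains, per length, the perinatal form Myh8 made up 79.4% ± 1.85 (SD, n = 4) of the summed level in tongue, the embryonic form Myh3 10.2% ± 0.816 and the fast form Myh4 8.35% ± 1.7. Slow and cardiac-type sarcomere genes were led by Actc1, the cardiac actin, at 1181 ± 361 CPM in tongue (SD, n = 4) and 2.04 ± 2.23 in epidermis (SD, n = 3), and 8 of 10 tested were higher in tongue. In bulk tissue, fewer cells of a type and less RNA per cell cannot be told apart.

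The start regions of 2 of these muscle genes are shown because CAGCTG, the E-box form bound by myogenic factors, lay in 9 of the 21 promoter windows matched for the list (42.9%), against 16.3% of all 32851 windows. The windows are from RefSeq (GRCm38.p6), run from 250 bases before to 50 after the start and are written on the gene's strand, with matches in capitals. CAGCTG reads the same on both strands. Its matches begin 51 bases before the start of Mylpf and 123 before that of Cacna1s, the voltage sensor of excitation-contraction coupling.
Mylpf, chr7:127211358-127211657, plus strand: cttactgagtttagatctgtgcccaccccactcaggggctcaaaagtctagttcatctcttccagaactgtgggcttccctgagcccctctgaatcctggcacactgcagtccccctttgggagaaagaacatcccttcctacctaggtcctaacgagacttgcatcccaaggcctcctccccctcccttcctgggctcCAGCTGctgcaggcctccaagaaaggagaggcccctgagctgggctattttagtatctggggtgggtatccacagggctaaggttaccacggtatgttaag
Cacna1s, chr1:136052561-136052860, plus strand: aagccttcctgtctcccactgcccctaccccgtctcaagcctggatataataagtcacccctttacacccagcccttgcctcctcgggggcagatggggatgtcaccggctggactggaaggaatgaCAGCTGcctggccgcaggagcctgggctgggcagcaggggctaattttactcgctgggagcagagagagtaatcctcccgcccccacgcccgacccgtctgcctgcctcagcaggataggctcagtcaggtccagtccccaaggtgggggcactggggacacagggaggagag

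All 15 genes of the myogenic list were higher in tongue. Myog, which drives the fusion and differentiation of myoblasts, had 0.342, 0.151 and 0.152 CPM in the epidermis libraries and 65.2, 71.7, 85.9 and 85.9 CPM in the tongue libraries, with no overlap. Myf6, the factor of maturing fibres, stood at 52.3 ± 11.3 CPM in tongue against 0.0717 ± 0.0365, the fusogen gene Mymk at 40.2 ± 5.09 against 0.0505 ± 0.0504, and Myf5, a marker of committed progenitors, at 11.5 ± 2.14 against 1 read in all 3 epidermis libraries. Pax7, which marks satellite cells, was at 6.75 ± 1.16 CPM in tongue. Of the 11 genes of the neuromuscular junction 9 were higher in tongue, among them Chrna1 and Chrng, subunits of the fetal acetylcholine receptor, and Musk, the kinase that clusters it (34 ± 8.98 against 0.0337 ± 0.0292 CPM). Chrnd had no read in epidermis and was at least 49.9-fold higher in tongue, taking 3 reads per library as the limit. Lrp4, the agrin receptor, which epithelia also express, went the other way at 365 ± 85.5 CPM in epidermis and 61 ± 3.24 in tongue.

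Genes of the tissues that surround muscle were higher in tongue as well. Endothelial genes were called in 13 of 13 cases, with a median log2 fold change of -6.46. Pecam1, the platelet-endothelial adhesion molecule, had 1.37, 1.06 and 1.42 CPM in the epidermis libraries and 132, 122, 113 and 118 CPM in the tongue libraries, and Kdr, the main receptor for VEGF, stood at 65.4 ± 4.82 against 0.608 ± 0.402 CPM. The summed endothelial level in epidermis, 7.17, 4.13 and 6.85 CPM, did not overlap that in tongue, 522, 476, 424 and 435 CPM. Fibroblast and matrix genes were higher in tongue in 15 of 16 cases, led by Col3a1 with 2990 ± 330.0 CPM against 66.5 ± 48.9 and Dpt with 259.8 ± 9.22 against 1.15 ± 0.951. In epidermis the collagen genes varied more between libraries than the endothelial ones, since Col3a1 read 34.3, 42.5 and 123 CPM in WT 1, 2 and 3.

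Tendon genes (5 of 5, led by Thbs4 at 183 ± 15.1 CPM against 0.304 ± 0.403) and pericyte and smooth muscle genes (9 of 10, led by Acta2 at 261 ± 35.7 against 2.54 ± 1.18) followed the same direction. Notch3 of the latter list was higher in epidermis, at 78.8 ± 19.1 against 26.4 ± 4.64 CPM. Mast cell genes were higher in tongue in 6 of 8 cases, with the protease genes Cma1 and Cpa3 at 34.2 ± 5.07 and 43.4 ± 5.36 CPM. Of 12 macrophage genes 8 were higher in tongue. Lyve1, found on lymphatic vessels and tissue macrophages, had a log2 fold change of -7.52, while Csf1r, the receptor for macrophage growth factor, did not pass the test at 28.9 ± 5.48 CPM in epidermis and 30.9 ± 7.67 in tongue. Erythroid genes were higher in tongue in 5 of 6 cases, with Hbb-bs at 621, 240.0, 141 and 246 CPM in tongue WT 1, 2, 3 and 4, a wide spread within the group. Of the adipocyte list Lpl, Fabp4, Plin4 and Pparg were higher in tongue, while the defining markers Adipoq, Cidec and Plin1 had too few reads to be tested and lay under 1 CPM in every group mean.

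**Figure D2:**
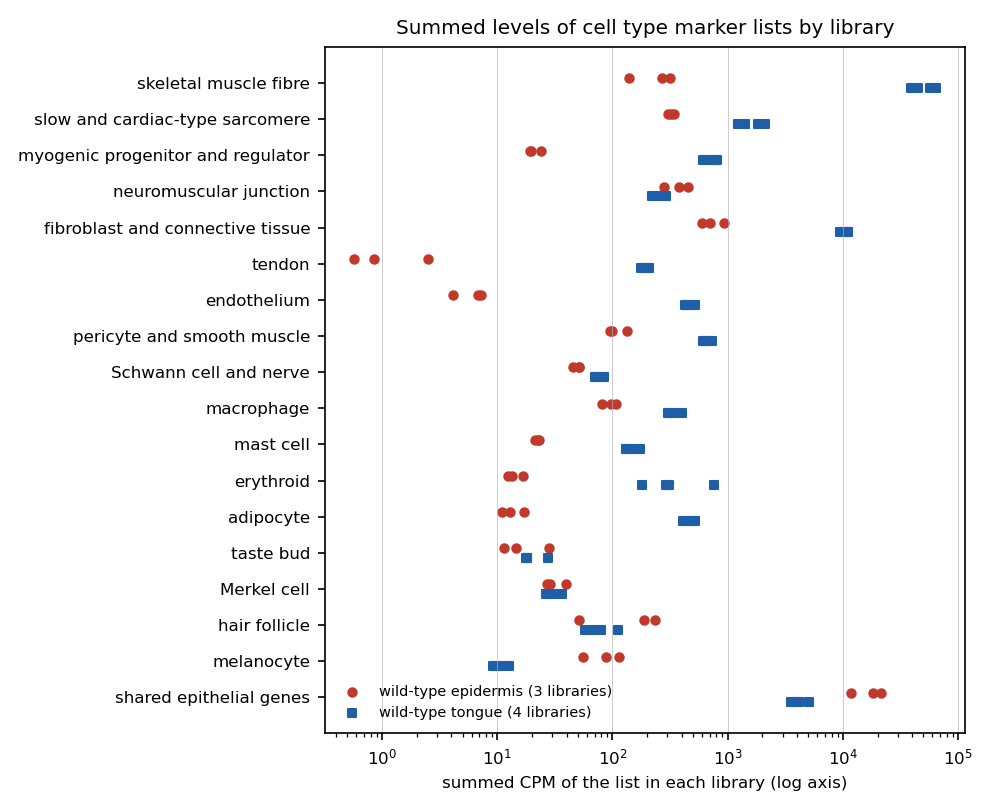
Summed CPM (x axis, log) of 18 cell type lists (y axis), with 1 red circle per wild-type epidermis library and 1 blue square per wild-type tongue library. Muscle lists other than neuromuscular junction, and connective tissue, vessel, mast cell and adipocyte lists, are separated by wide gaps with tongue higher. Melanocyte and shared epithelial lists are separated with epidermis higher, and neuromuscular junction, taste bud, Merkel cell and hair follicle lists overlap.

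For some cell types at least part of the listed genes were higher in epidermis. Melanocyte genes were higher in epidermis in 6 of 7 cases. Dct, an enzyme of melanin synthesis, had 27.9, 37.7 and 49.5 CPM in the epidermis libraries and 0.094, 0.0792, 0 and 0.158 CPM in the tongue libraries, and Tyr, the rate-limiting enzyme, had 8.54, 12.1 and 14.6 CPM in epidermis and no read in tongue, at least 48.1-fold higher. Mitf, the factor that governs the lineage but is expressed more widely, did not pass the test at 9.07 ± 4.48 and 9.96 ± 1.36 CPM. Chga, a granule protein of Merkel cells, the touch receptor cells of skin, was higher in epidermis at 26.1 ± 6.24 against 0.0903 ± 0.133 CPM, whereas their ion channel gene Piezo2 and the factor gene Isl1 were higher in tongue. The other genes of the Merkel cell list, Atoh1, Krt20 and Rab3c, had too few reads to be tested. Of the Langerhans cell and epidermal T cell list, Cd74 was higher in epidermis, 5.82 ± 1.84 against 2.09 ± 0.703 CPM, and the T cell genes Cd3e, Cd3d, Cd3g and Trdc had too few reads to be tested. In all, 1 of 3 genes of this list tested was higher in epidermis, and without epidermis WT 1, when 6 could be tested, 4 were (2 of 4 without epidermis WT 3). The summed level of Schwann cell genes was 51.5, 51 and 45.9 CPM in the epidermis libraries and 76.1, 71.3, 72.9 and 84.9 CPM in the tongue libraries, with no overlap and with tongue higher. Of the 10 genes of this list 6 were higher in tongue and 2 in epidermis, among the latter Mbp, the myelin basic protein gene, at 27 ± 4.85 against 14.4 ± 1.66 CPM.

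The hair follicle list was divided by compartment, with 9 genes higher in epidermis and 5 in tongue of 17 tested, or 13 and 5 of 18 without epidermis WT 1. Keratins of the inner root sheath, the layer that moulds the growing shaft, were higher in epidermis in 5 of 5 tested cases with a median log2 fold change of 8.04. Krt71 had 10.1, 53 and 64 CPM in the epidermis libraries and 0.094, 0, 0 and 0.079 CPM in the tongue libraries, so that epidermis WT 1 held far fewer reads than the other epidermis libraries but lay above every tongue library. The 5 keratins of the hair cortex in this list were all higher in tongue, with log2 fold changes from -4.82 (Krt81) to -1.25 (Krt35). The call of Krt35 was lost without epidermis WT 2 or without any 1 of the tongue libraries, with edgeR adjusted p from 0.061 to 0.0703. Shh, the ligand made by the follicle matrix, and Lhx2, a factor of follicle progenitors, were higher in epidermis, with log2 fold changes of 5.07 and 7.75. The follicle list summed to 50.9, 189 and 234 CPM in epidermis WT 1, 2 and 3, and the part of this difference between libraries in the results was not tested.

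Of 7 tested taste bud genes 5 were higher in tongue, led by Krt8 with 6.02 ± 4.28 CPM, and the transduction genes Gnb3 and Trpm5 had 3.92 ± 0.531 and 3.6 ± 0.52. Tas1r3, a subunit of the sweet and umami receptors, was higher in epidermis at 11.7 ± 6.54 against 0.794 ± 0.197 CPM, a level that ranged between libraries (19.2, 8.72 and 7.25 CPM). Of the salivary list, Smgc and Muc5b were higher in tongue, Muc5b unevenly at 7.33, 2.77, 0.731 and 1.98 CPM, and Lpo had 1.79 ± 0.74 CPM in epidermis and no read in tongue. Without tongue WT 1 or 2, neither Smgc nor Muc5b had enough reads to be tested. Sebaceous genes were divided, with Awat1, a wax synthase gene, and Far2 higher in epidermis and Plin2 and Soat1, which many lipid-storing cells express, higher in tongue.

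Genes shared by stratified epithelia served as a yardstick for the epithelial part of each preparation. Of 23 tested, 22 were higher in epidermis, with a median log2 fold change of 2.17. Trp63, the master factor of stratified epithelium, had 204, 279.9 and 306 CPM in the epidermis libraries and 98.8, 89.7, 98.3 and 93.3 CPM in the tongue libraries, and Krt5, the basal keratin, 1481, 2548 and 1971 CPM in the epidermis libraries and 251, 290.2, 246 and 296 CPM in the tongue libraries. Ehf, an ETS factor, was the exception at 47.7 ± 13.4 CPM in epidermis and 80.6 ± 8.57 in tongue. A second set of fold changes was therefore scaled so that these genes were level on average across the libraries. On that scale 694 genes (4.19%) were higher in epidermis and 12844 (77.5%) higher in tongue, together 81.7% of those tested. That scale is of use for genes that non-epithelial cells do not make, since any transcript of muscle or stroma moves further to the tongue side on it.

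Different keratins led in the 2 epithelia. Krt10 (chr11:99385254-99389364) had 8143, 15732 and 12456 CPM in the epidermis libraries and 79.3, 43.1, 34.1 and 42 CPM in the tongue libraries. Its partner Krt1 (chr15:101845426-101850794) had 11210, 22072 and 19578 CPM in epidermis and 41.9, 24.3, 21.5 and 27.7 in tongue. Both were present in every tongue library at 21.5 CPM or more, and the groups did not overlap, with log2 fold changes of 7.93 ± 0.47 and 9.26 ± 0.48. In the other direction, Krt13 (chr11:100117327-100121566), the mucosal type I keratin, had 29.3, 13.2 and 15.5 CPM in the epidermis libraries and 3133, 2594, 3290 and 4341 CPM in the tongue libraries, and Krt4, its partner, had 16.2 ± 9.8 CPM in epidermis and 2428 ± 656 in tongue. The keratins of the hard papillae, Krt84, Krt36 and Krt76, had log2 fold changes of -9.11, -9.02 and -9.01. Krt77 and Krt79, of the list of epidermal differentiation keratins, were at 278, 403 and 293 CPM and 112, 268 and 212 CPM in the epidermis libraries and below 1 CPM in tongue.

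As shares of all 53 keratins, per length, Krt10 made up 44% ± 0.953 of the keratin level in epidermis and 0.478% ± 0.208 in tongue (SD, n = 3 and 4), and Krt1 30.6% ± 1.68 and 0.132% ± 0.0441. Krt13 made up 36.4% ± 2.48 in tongue and 0.0968% ± 0.0762 in epidermis, and Krt4 22.4% ± 2.52 and 0.0713% ± 0.0659. The basal pair Krt5 and Krt14 took a smaller share in tongue, 2.5% ± 0.402 and 3.31% ± 0.64, than in epidermis, 7.09% ± 0.589 and 7.74% ± 0.237. Krt6a, an activation keratin that the tongue makes in health, took 7.31% ± 0.0346 of the tongue's keratin level and 0.284% ± 0.052 of the epidermis's. Its companion Krt16 was higher in epidermis by 1.14 on the log2 scale, and Krt6b did not pass the test. Without tongue WT 4 Krt6b passed, higher in epidermis by 0.70. The type I cluster on chromosome 11 held 11 genes higher in epidermis and 27 higher in tongue of 43 tested, and the type II cluster on chromosome 15 held 8 and 11 of 22.

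The epidermal differentiation complex on chromosome 3 was mixed within itself. In the stretch from the small proline-rich genes to the S100-fused genes (chr3:92285417-93471980, GRCm38) 33 of 50 tested genes were higher in epidermis, 13 were higher in tongue and 4 had no call. The 14 Lce1 genes of the late cornified envelope were all higher in epidermis with a median log2 fold change of 4.33, and the near-identical coding sequences of this family make the split of reads among them uncertain. Lce1m had the largest log2 fold change of any gene called higher in epidermis, 12.26 ± 0.53, from 1327, 926 and 854 CPM in the epidermis libraries and 0.282, 0, 0.0731 and 0.474 CPM in the tongue libraries. The Lce3 genes, which are otherwise known from healing skin, lay on the other side, with 5 of 6 higher in tongue. Lce3a had 67.4 ± 22.5 CPM in tongue and 0.704 ± 0.322 in epidermis.

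Of the small proline-rich envelope genes 5 were higher in epidermis and 3 in tongue of 10 tested. Without epidermis WT 1, 8 were called higher in epidermis. Sprr3 had 655 ± 182 CPM in tongue and 5.81 ± 3.05 in epidermis. Sprr2d had no read in tongue and was at least 56.1-fold higher in epidermis. Of 18 other envelope and stratum corneum genes 16 were higher in epidermis and the other 2 had no call, and relative to the shared epithelial genes 9 were higher in epidermis and 4 in tongue. Lor, the main envelope protein, had 2079, 958 and 962 CPM in the epidermis libraries and 73.5, 84.4, 37.3 and 59 CPM in the tongue libraries, and Ivl, another envelope protein, and Casp14, a protease that cuts filaggrin, were higher in epidermis by 262-fold and 357-fold (means of CPM). Tgm3, a cross-linking enzyme of envelopes and hair, did not pass the test at 134 ± 50 and 182 ± 34.8 CPM.

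The 7 S100-fused genes, which encode large repeat proteins of the envelope, lie side by side on the plus strand in the order Crnn, Flg2, Flg, Hrnr, Rptn, Tchh and Tchhl1. Crnn, Rptn and Tchh were higher in tongue and the other 4 in epidermis, so neighbours within 47.46 kb of each other went in opposite directions. The call of Tchhl1 was lost without epidermis WT 2 or 3 or without tongue WT 1, 3 or 4 (edgeR adjusted p = 0.0559 to 0.165). Flg2 had 7629, 5283 and 5530 CPM in the epidermis libraries and 2.26, 1.58, 1.1 and 2.92 CPM in the tongue libraries, and Flg, whose loss causes dry skin, had 4553, 2989 and 3378 CPM in the epidermis libraries and 19.6, 8.71, 5.19 and 6.72 CPM in the tongue libraries. Rptn, the repetin gene, had 484, 522 and 902 CPM in the epidermis libraries and 2192, 1875, 2154 and 2774 CPM in the tongue libraries, high in both tissues. Hrnr, Flg2 and Flg made up 37.5% ± 4.99, 28.3% ± 5.62 and 18.4% ± 3.59 of the summed level per length in epidermis, and Rptn alone made up 83.2% ± 2.77 in tongue.

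The start regions of the filaggrin genes and of their neighbours with the opposite direction are shown because TGANTCA, the AP-1 motif, lay in 5 of the 7 S100-fused windows (71.4%) and in 7.81% of all windows, on both sides of the contrast alike. The motif reads the same on both strands, and it begins 69 bases before the start of Flg2, 103 before Flg, 96 before Rptn and 96 before Crnn. None of the 20 late cornified envelope windows held it. The other motifs searched on both strands were TATAAA, the MEF2 motif (CTA and TAG with 4 bases between them), AACCNGTT (grainyhead), GCCNNNGGC (AP-2) and TTGCNNAA (C/EBP), and in the windows shown no capital match overlapped a match of another motif.
Flg2, chr3:93197023-93197322, plus strand: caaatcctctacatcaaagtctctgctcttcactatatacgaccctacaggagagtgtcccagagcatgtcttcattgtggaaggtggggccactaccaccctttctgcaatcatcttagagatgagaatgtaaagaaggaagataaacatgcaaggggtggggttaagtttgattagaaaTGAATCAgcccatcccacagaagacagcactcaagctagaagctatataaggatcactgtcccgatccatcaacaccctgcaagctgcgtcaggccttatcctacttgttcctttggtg
Flg, chr3:93273296-93273595, plus strand: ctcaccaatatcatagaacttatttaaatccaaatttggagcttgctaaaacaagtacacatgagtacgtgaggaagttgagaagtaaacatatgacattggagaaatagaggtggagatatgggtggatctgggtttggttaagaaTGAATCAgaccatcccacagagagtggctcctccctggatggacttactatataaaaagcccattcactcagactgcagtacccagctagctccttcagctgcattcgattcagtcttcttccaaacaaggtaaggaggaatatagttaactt
Rptn, chr3:93393449-93393748, plus strand: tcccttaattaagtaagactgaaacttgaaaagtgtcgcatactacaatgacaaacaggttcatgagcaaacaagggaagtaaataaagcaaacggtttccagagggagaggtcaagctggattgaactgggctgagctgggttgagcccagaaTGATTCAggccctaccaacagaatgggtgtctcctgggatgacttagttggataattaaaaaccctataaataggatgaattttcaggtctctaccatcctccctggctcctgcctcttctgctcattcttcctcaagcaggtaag
Crnn, chr3:93144539-93144838, plus strand: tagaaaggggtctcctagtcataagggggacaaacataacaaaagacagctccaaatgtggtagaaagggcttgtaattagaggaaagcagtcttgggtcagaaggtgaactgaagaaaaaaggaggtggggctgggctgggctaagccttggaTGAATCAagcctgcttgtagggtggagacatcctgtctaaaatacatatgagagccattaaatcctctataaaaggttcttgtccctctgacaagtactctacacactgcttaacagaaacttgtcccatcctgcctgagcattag

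Genes that build the lipid seal of the epidermis were higher there in 24 of 25 cases, with a median log2 fold change of 2.62. Relative to the shared epithelial genes 14 were still higher in epidermis and 4 were higher in tongue. Abca12, the transporter that loads lamellar bodies, had 1369, 1202 and 1386 CPM in the epidermis libraries and 133, 125, 105 and 117 CPM in the tongue libraries. Lipn, a lipase gene, had 31.3 ± 6.2 CPM in epidermis and a single read in the tongue libraries. Elovl4 and Cers3, which make the very long acyl chains, had log2 fold changes of 2.58 and 1.98, the latter 0.02 on the epithelial scale. Asah1, a lysosomal ceramidase, did not pass the test. It passed without epidermis WT 1, with a log2 fold change of 0.43.

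**Figure D3:**
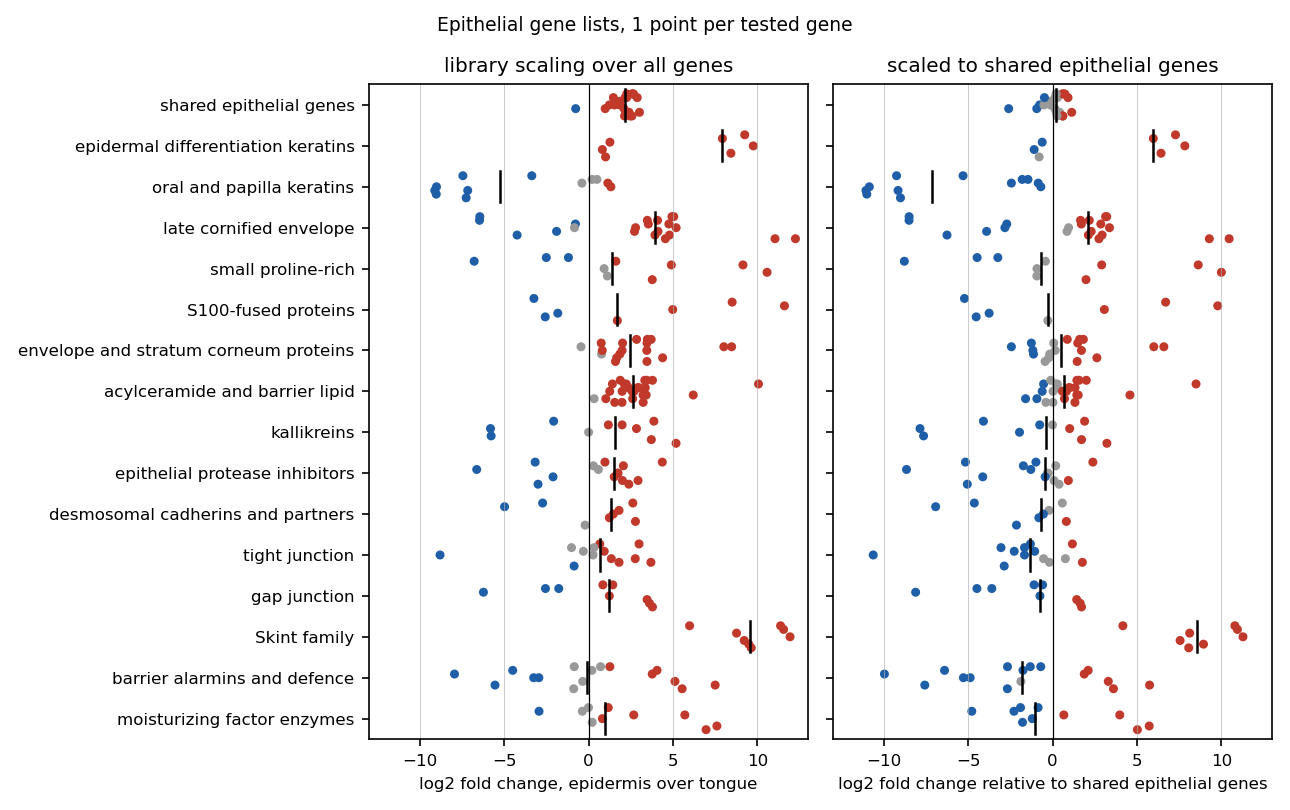
Log2 fold change of epidermis over tongue (x axis) for each tested gene of 16 epithelial lists (y axis), scaled over all genes on the left and to the shared epithelial genes on the right. Red and blue points passed the test as higher in epidermis and in tongue, grey points did not, and black bars are list medians: the epidermal keratin, Lce, barrier lipid and Skint lists kept a positive median on the right, while kallikrein, inhibitor and junction lists moved to or below 0.

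Proteases that shed the outer layers divided between the tissues. Of 10 kallikreins 6 were higher in epidermis and 3 in tongue, and on the epithelial scale 4 and 5. Klk7 and Klk5, the main desquamation enzymes of skin, made up 51.9% ± 2.88 and 21.3% ± 2.83 of the kallikrein level per length in epidermis. In tongue Klk10 took 31.6% ± 4.74 and Klk14 13.9% ± 9.06. Klk14 varied among tongue libraries (60.8, 38.3, 13.5 and 24.7 CPM) but lay above every epidermis library (1.48, 0.353 and 0.406). Among inhibitors, Slpi, which blocks leukocyte elastase, was higher in tongue at 248 ± 58.7 against 2.39 ± 0.986 CPM, and Spink5, the kallikrein inhibitor, higher in epidermis at 1482 ± 557 against 445 ± 49.9.

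The membrane-anchored proteases of the Tmprss11 cluster, the genes that the study edited, also divided between the wild-type tissues. Tmprss11f, the gene of HAT-like 4, had 295, 215 and 226 CPM in the epidermis libraries and 13.3, 12.1, 12.6 and 14.2 CPM in the tongue libraries, a log2 fold change of 4.23 ± 0.17. Tmprss11g was higher in epidermis too, at 8.23 ± 1.91 against 3.44 ± 0.928 CPM. Tmprss11a had 2.16, 2.17 and 2.18 CPM in the epidermis libraries and 236, 220.0, 228 and 234 CPM in the tongue libraries, and Tmprss11d and Tmprss11b were higher in tongue with log2 fold changes of -5.70 and -3.95. Tmprss11e did not pass the test at 3.85 ± 0.487 and 4.56 ± 0.732 CPM, and Tmprss11c was not analysed here. Prss8 and St14, which act together as epidermal barrier proteases, were higher in epidermis by 2.40 and 2.09 on the log2 scale.

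Cell contacts differed in a few members. Dsc2, a desmosomal cadherin, had 9.79, 11.7 and 16.2 CPM in the epidermis libraries and 430.5, 314, 399.8 and 450.3 CPM in the tongue libraries, and made up 28% ± 1.8 of the cadherin level per length in tongue and 0.417% ± 0.177 in epidermis. Dsc1, the form of differentiated epidermis, made up 35.8% ± 4.78 in epidermis and 14.7% ± 0.806 in tongue. Dsg3, the form of basal layers and of mucosa, did not pass the test at 119.5 ± 20.1 and 138 ± 19.2 CPM. Of 9 connexins 6 were higher in epidermis, among them Gjb5 by 3.79 and Gjb2 by 1.24 on the log2 scale, and the vascular connexins Gja4 and Gja5 were higher in tongue. On the epithelial scale 3 connexins were higher in epidermis and 6 in tongue. The latter include the vascular Gja4 and Gja5, so this count does not describe the epithelium alone. Among tight junction genes Cldn1, listed with the shared epithelial genes, was higher in epidermis by 2.17 and Tjp3 by 3.70, and Cldn2, a pore-forming claudin, was higher in tongue at 13.2 ± 3.78 CPM against 1 read in all epidermis libraries.

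The Skint genes, among them Skint1, whose product selects epidermal gamma-delta T cells, were higher in epidermis in 8 of 8 cases. Skint5, Skint7 and Skint8 had 17.4 ± 3.92, 23.3 ± 3.75 and 12.2 ± 2.55 CPM there. The other 5 had no read in any tongue library, and Skint2 was at least 143-fold higher. The list's median log2 fold change was 9.57, or 6.70 with those genes set at their lower bounds. The genes are similar in sequence, so reads may be shared among them. Of 7 chosen ligands of the interleukin-1 family (Il1a, Il1f5, Il1f6, Il1f8, Il1f9, Il1f10 and Il33), 6 were higher in epidermis. Among them was Il1f5, the interleukin-36 receptor antagonist, at 558 ± 74.2 against 11.9 ± 1.52 CPM. Il33 was higher in tongue at 29.4 ± 6.43 against 3.83 ± 0.487. Antimicrobial Defb4 was higher in tongue, 120.0 ± 23.9 against 0.493 ± 0.0823 CPM, and S100a8 and S100a9, the calprotectin subunits, did not pass the test. Without epidermis WT 1 both passed and were higher in tongue, with log2 fold changes of -1.32 and -1.24, and S100a9 also without tongue WT 4 (-1.04). Of 10 genes for enzymes that turn filaggrin into moisturizing factor, 6 were higher in epidermis, 1 was higher in tongue and 3 had no call. On the epithelial scale 4 were higher in epidermis and 6 in tongue. Hal, Ggct and Blmh were higher in epidermis by 6.96, 7.61 and 2.68.

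The Hox genes, which set position along the body axis, were higher in epidermis in 20 of 20 tested cases of their list. Hoxc13, kept with the hair follicle list because it controls hair keratins, did not pass the test at 2.79 ± 1.81 and 1.97 ± 0.557 CPM. When epidermis WT 1 was left out it passed, higher in epidermis by 0.84. Hoxa7 had 11.6, 18.3 and 12.8 CPM in the epidermis libraries and 0, 0, 0 and 0.079 CPM in the tongue libraries, and Hoxc8 had 6.83, 5.9 and 8.62 CPM in epidermis and no read in tongue, at least 29.2-fold higher. Within the 4 clusters, other transcripts between the Hox genes included, 11 of 11 tested genes of Hoxa, 8 of 8 of Hoxb, 4 of 5 of Hoxc and 2 of 2 of Hoxd were higher in epidermis. Hoxd8 had the smallest gap, 8.3 ± 0.789 against 5.22 ± 1.08 CPM. Its call was lost without epidermis WT 2 or 3 or without tongue WT 1, 3 or 4 (edgeR adjusted p = 0.0567 to 0.0754). Levels were low throughout, with Hoxa7 the highest. The list's median was 6.06, or 3.72 with the genes at 0 in tongue set at their lower bounds.

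In the other direction, 29 of 35 lingual and craniofacial patterning factors tested were higher in tongue, with a median log2 fold change of -5.60, or -5.15 with the genes at 0 in epidermis set at their bounds. Pax9, which patterns the filiform papillae and the oral epithelium, had 0.797, 0.0504 and 0 CPM in the epidermis libraries and 61.3, 43.1, 48 and 44.4 CPM in the tongue libraries. Prrx1, a factor of cranial mesenchyme, had 75.1 ± 5.14 CPM in tongue against 1.43 ± 0.778. Sim2 stood at 14.5 ± 2.35 CPM in tongue, Lhx8, a marker of the first branchial arch, at 6.52 ± 0.831, and Sox2, which marks taste progenitors, at 7.55 ± 0.494 against 0.384 ± 0.0364. The list's members higher in epidermis were Dlx3, Dlx4, Dlx5, Irx3 and Irx5, led by Dlx3, which acts late in epidermal differentiation, at 32.2 ± 4.59 against 6.51 ± 1.16 CPM. The call of Dlx4 was lost without epidermis WT 2 or 3 or without tongue WT 2 or 4 (edgeR adjusted p = 0.065 to 0.0815). All 5 Irx genes tested were higher in epidermis.

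Among factors of skin regions, Tbx15 had 0.228, 0.202 and 0.507 CPM in the epidermis libraries and 84, 89, 89.4 and 90.7 CPM in the tongue libraries, and Meox2 and Ebf2 had log2 fold changes of -7.49 and -6.52, all higher in tongue. Lmx1b, the dorsal limb factor, was higher in epidermis at 3.65 ± 0.311 against 0.0396 ± 0.0457 CPM. Mesenchymal cells make many of these factors, and the tongue libraries also held more of the fibroblast transcripts (10271, 9437, 11047 and 11084 CPM against 599.8, 704 and 935). Their part in these differences was not tested.

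**Figure D4:**
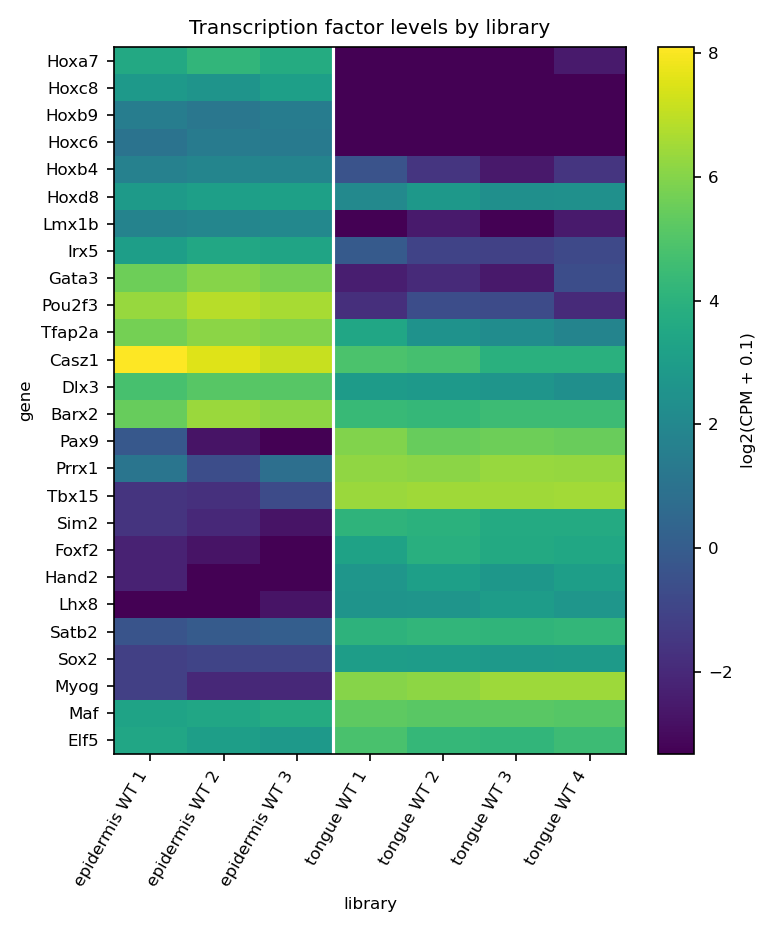
Level of 26 transcription factors (y axis) in each wild-type library (x axis), as log2(CPM + 0.1) in colour, with the white line between epidermis and tongue. Lmx1b, Gata3, Pou2f3 and the Hox genes other than Hoxd8 are brighter in the 3 epidermis libraries, Hoxd8 is close in both tissues, and Pax9, Prrx1, Tbx15 and Myog are brighter in the 4 tongue libraries.

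Of 36 factors of stratification 28 were higher in epidermis and 3 in tongue, with a median log2 fold change of 1.95. On the epithelial scale 13 were higher in epidermis and 10 in tongue, and the median was -0.03. Gata3, which controls barrier lipid genes, had 47.6, 64.8 and 54.2 CPM in the epidermis libraries and 0.094, 0.158, 0.0731 and 0.553 CPM in the tongue libraries, and Pou2f3, a factor of differentiating keratinocytes, had 81.4, 118 and 97.2 CPM in the epidermis libraries and 0.188, 0.554, 0.512 and 0.158 CPM in the tongue libraries. Casz1, Tfap2a, Tfap2b and Bnc1 followed with log2 fold changes of 3.23, 3.32, 3.28 and 3.34. Klf4, Grhl1, Zfp750 and Prdm1, which drive the terminal programme, were higher in epidermis by 1.64, 1.92, 2.41 and 2.05, and on the epithelial scale none of the 4 passed the test, at -0.28, -0.04, 0.47 and 0.24. Maf, Foxq1 and Elf5 were higher in tongue, Maf at 36 ± 1.72 against 11.1 ± 1.71 CPM. Hopx, Hes1 and Elf3 did not pass the test. All 3 passed without epidermis WT 1, higher in epidermis by 0.58, 0.71 and 0.75.

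Of 33 receptor tyrosine kinases 14 were higher in epidermis and 16 in tongue, and on the epithelial scale 1 and 24. As in every list, that scale moves any transcript of muscle or stroma further to the tongue side. Erbb2 and Erbb3, partners in neuregulin signalling, and Epha1 and Ephb6 were higher in epidermis by 2.24, 1.71, 2.19 and 3.58. Epha3 had 0.569, 0.101 and 0.254 CPM in the epidermis libraries and 88.6 ± 7.95 CPM in tongue (SD, n = 4), and Ntrk2, the neurotrophin receptor, and Fgfr4 had log2 fold changes of -6.91 and -6.28. Fgfr2, whose epithelial form binds Fgf7 and Fgf10, was higher in epidermis at 228 ± 7.52 against 80 ± 6.33 CPM, while the ligands themselves were higher in tongue, Fgf7 at 22 ± 2.45 against 0.295 ± 0.0631 and Fgf10 at 6.33 ± 0.73 against 0.186 ± 0.239.

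Of 9 tested ligands of the EGF family 5 were higher in epidermis and 2 in tongue, and their median log2 fold change was 0.94, or -0.88 on the epithelial scale. Btc, betacellulin, had 160.1, 155 and 128 CPM in the epidermis libraries and 3.67, 6.49, 7.02 and 7.35 CPM in the tongue libraries, and Areg and Ereg were higher in epidermis by 3.89 and 1.99, against Egf and Epgn in tongue. Egfr itself was higher in epidermis by 0.63 on the log2 scale with overlapping libraries, 133, 197 and 236 against 104, 116, 124 and 145 CPM. This call was lost without epidermis WT 2 or 3 or without tongue WT 1, 2 or 3, with edgeR adjusted p from 0.0615 to 0.121, and that of Epgn without epidermis WT 1 or 2 or tongue WT 2, 3 or 4, with adjusted p from 0.0756 to 0.133.

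Of 14 Wnt ligands tested 9 were higher in epidermis, with Wnt10b, which supports follicle growth, at 28.1 ± 6.14 against 0.371 ± 0.211 CPM, and Wnt16, Wnt6 and Wnt3 near 3 on the log2 scale. Wnt5a, a non-canonical ligand, was higher in tongue at 26.3 ± 3.49 against 3 ± 1.6. Relative to the shared epithelial genes 5 Wnt ligands were higher in epidermis and 6 in tongue. Per length, Wnt4 was the most abundant in both, 27% ± 0.684 of the Wnt level in epidermis and 36.7% ± 2.05 in tongue. A chosen group of 7 Wnt antagonists (Sfrp1, Sfrp2, Sfrp4, Frzb, Dkk2, Dkk3 and Wif1) was higher in tongue throughout. Sfrp4 had 13.3 ± 2.3 CPM there against 3 reads in all epidermis libraries, and Dkk2 had a log2 fold change of -6.55. Of the responses, Axin2 and Rnf43 were higher in epidermis by 1.49 and 2.64, and Lgr6, a stem cell receptor of skin, had 62, 74.8 and 79.3 CPM in the epidermis libraries and 5.92, 3.09, 3.44 and 2.92 CPM in the tongue libraries. Lgr5, Lgr4 and Fzd3 did not pass the test. Fzd3 passed without epidermis WT 1, at 0.45.

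The hedgehog targets Ptch1 and Gli1 were higher in epidermis, by 2.64 and 2.16 on the log2 scale. Bone morphogenetic protein ligands Bmp5 and Bmp3 and the antagonists Grem1, Nog and Chrd were higher in tongue. Notch1 and Jag2 were higher in epidermis by 1.93 and 2.11, and Hey1, Hey2 and Dll4, which vessels also express, were higher in tongue. Of 13 genes of the Notch list tested, 8 were higher in epidermis and 5 in tongue, and on the epithelial scale 0 and 10. Of 30 tested cytokine and pattern receptors 15 were higher in epidermis and 7 in tongue, and on the epithelial scale 4 and 20. Il22ra1 and Il20rb, which receive signals of the interleukin-20 family in keratinocytes, were higher in epidermis by 4.28 and 3.84, and Tlr4 and the interleukin-33 receptor gene Il1rl1 were higher in tongue, with log2 fold changes of -4.33 and -4.45.

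Of 37 G protein-coupled receptors 9 were higher in epidermis and 20 in tongue, and on the epithelial scale 2 and 28. Agtr2, the fetal angiotensin receptor, had 0.342, 0.303 and 1.47 CPM in the epidermis libraries and 497, 482, 424 and 409 CPM in the tongue libraries, a log2 fold change of -9.20, while Adgrf4 was higher in epidermis at 149 ± 50.6 against 11.9 ± 1.22 CPM. Mc1r, the melanocortin receptor, had 2.24 ± 0.425 CPM in epidermis and no read in tongue. Of nuclear receptors, Rora, a retinoid-related orphan receptor, had 547, 618 and 658 CPM in the epidermis libraries and 56.1, 43.1, 45.6 and 49.1 CPM in the tongue libraries, and Vdr, Ppard, Rxra and Rarg were higher in epidermis by 1.61, 2.21, 1.98 and 1.69. Rxrg and Nr2f1 were higher in tongue, with log2 fold changes of -7.27 and -6.49. Of 31 nuclear receptors tested 9 were higher in epidermis and 16 in tongue, and on the epithelial scale 1 and 23. Nr4a1, Nr4a2 and Nr4a3, which respond to activity, were higher in tongue in 3 of 3 cases. Of epithelial channels Trpv3, which senses warmth in keratinocytes, and Ano1 were higher in epidermis by 2.68 and 2.79, and Clca3a2 had 210.2, 298 and 268 CPM in the epidermis libraries and 0.282, 0, 0 and 0.237 CPM in the tongue libraries.

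Genes of oxidative and glycogen metabolism were mostly higher in tongue. Nuclear genes of the respiratory chain were higher in tongue in 67 of 70 cases, with a median log2 fold change of -2.01, and citrate cycle genes in 19 of 22, with a median of -2.16. The summed respiratory level was 1565, 3561 and 3445 CPM in epidermis and 11134, 10774, 11958 and 11339 CPM in tongue. Idh3a, a citrate cycle enzyme, had 17.9, 29.9 and 36 CPM in the epidermis libraries and 229.6, 242, 261 and 273 CPM in the tongue libraries. The genes encoded in mitochondrial DNA did not follow, since 1 of 7 tested was called (mt-Nd6, higher in tongue with overlapping values). That call was lost without epidermis WT 2 or 3 or tongue WT 1, 3 or 4 (edgeR adjusted p = 0.055 to 0.105). Their median was -0.10, and -0.66 without epidermis WT 1, when 4 of the 7 were called higher in tongue.

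Fatty acid oxidation genes were higher in tongue in 16 of 22 cases, among them the fat importer Cd36 and the mitochondrial regulator Ppargc1a, with log2 fold changes of -5.99 and -6.27. Glycogen genes were higher in tongue in 11 of 13, with Ppp1r3a at 254 ± 36.1 against 0.611 ± 0.362 CPM, and the liver and brain phosphorylases Pygl and Pygb were higher in epidermis. Glycolysis genes were higher in tongue in 11 of 20 and in epidermis in 5, among them the glucose transporter gene Slc2a1 (61.3 ± 21.1 against 16.1 ± 3.7 CPM), the widely expressed hexokinase gene Hk1 and the liver phosphofructokinase gene Pfkl.

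Isoforms of the same enzyme differed in their shares. Muscle enolase Eno3 was 27.8% ± 11.9 of the enolase level per length in epidermis (SD, n = 3) and 99.1% ± 0.0835 in tongue (SD, n = 4). Muscle phosphofructokinase Pfkm went from 29.2% ± 11.2 to 96.3% ± 0.518, glycogen phosphorylase Pygm from 6.47% ± 2.07 to 95.8% ± 0.802, and the insulin-responsive transporter Slc2a4 from 4.67% ± 1.09 to 85.3% ± 2.37. The heart and muscle cytochrome oxidase subunits Cox6a2, Cox7a1 and Cox8b averaged 0.682% ± 0.212, 1.82% ± 2.54 and 1.36% ± 1.79 of their families in epidermis. In tongue they made up 63.1% ± 1.33, 39.2% ± 1.13 and 43.1% ± 1.88. Of the 11 families compared, 10 had no overlap between tissues (exact permutation test, two-sided, p = 0.0286, the smallest possible, adjusted p = 0.0314 over the 11), and the hexokinase family, with Hk1 as 40.5% ± 23.8 and 20.5% ± 6.84, gave p = 0.114. Not all of the 10 differed widely. The phosphoglycerate mutase Pgam2 ranged from 7.49 to 91.47% in epidermis and from 99.26 to 99.47% in tongue. The aldolase Aldoa led in both tissues, at 93.5% ± 0.763 in epidermis and 99.78% ± 0.0479 in tongue.

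**Figure D5:**
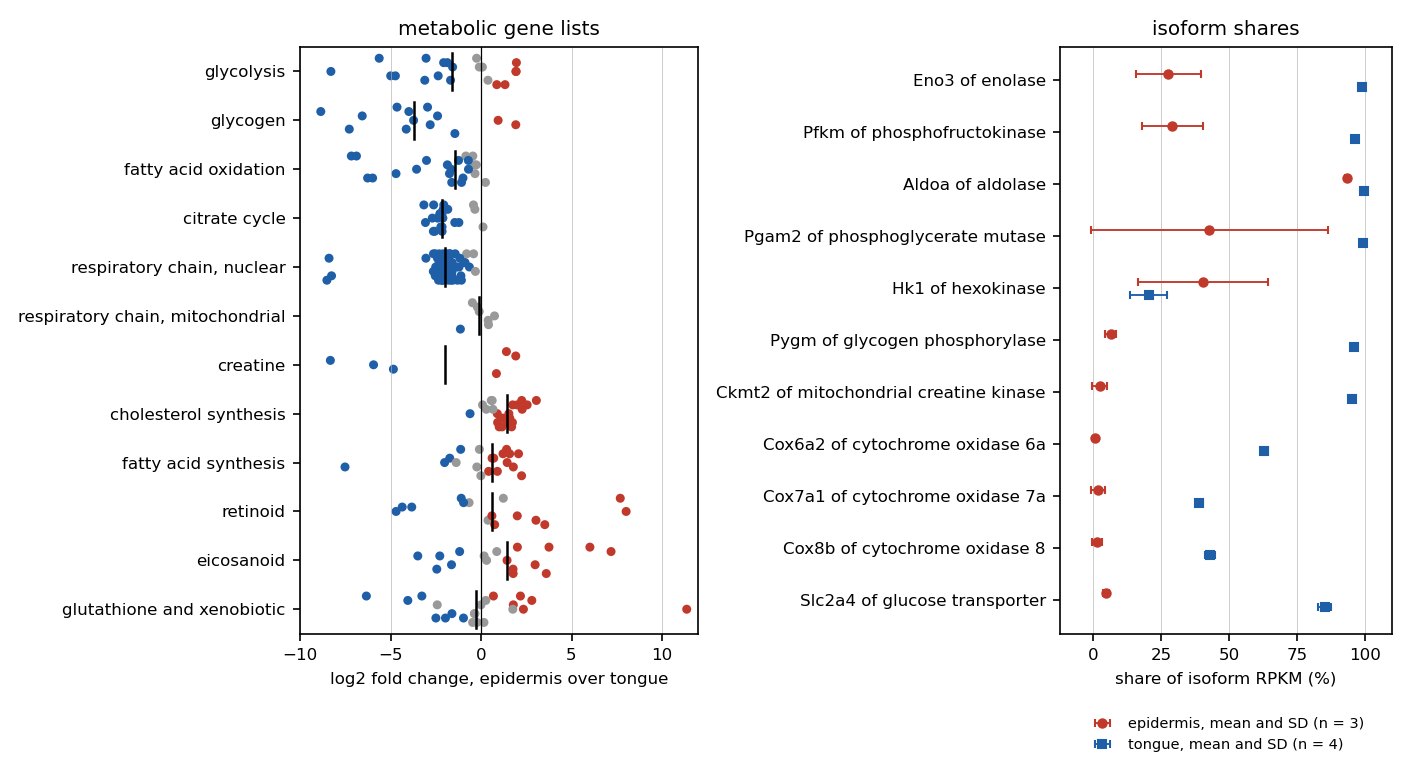
Left, log2 fold change of epidermis over tongue (x axis) for each tested gene of 12 metabolic lists (y axis), red and blue where the test was passed and grey where not, with black bars at the medians. Right, share (%) of the named isoform in the summed RPKM of its enzyme family, mean and SD of the 3 epidermis and 4 tongue libraries: the tongue shares are higher in 10 of the 11 families.

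Lipid synthesis genes were mostly higher in epidermis with scaling over all genes. Those of cholesterol synthesis were higher there in 17 of 23 cases, with a median log2 fold change of 1.45. On the epithelial scale 2 of them were higher in epidermis and 13 in tongue, with a median of -0.50. That scale also moves any transcript of muscle or stroma to the tongue side. With scaling over all genes, the only listed gene higher in tongue was Insig1, at 31.4 ± 7.53 against 20.5 ± 4.36 CPM. It lost the call without epidermis WT 3 or tongue WT 1 or 3, and on the scale of library totals alone its log2 fold change was -0.39 (edgeR adjusted p = 0.245). Stard4, a cholesterol carrier gene, was higher in epidermis by 3.06. Fatty acid synthesis genes were divided 11 to 4 of 19, with Fasn and Elovl6 higher in epidermis and Thrsp, Acss2, Fads1 and Elovl5 higher in tongue. Relative to the shared epithelial genes 0 were higher in epidermis and 12 in tongue, with a median of -1.355. Of 15 retinoid genes tested 7 were higher in epidermis and 5 in tongue, and on the epithelial scale 4 and 8. A group of 5 chosen retinol dehydrogenase genes, Rdh1, Rdh9, Rdh10, Rdh12 and Rdh16, was higher in epidermis throughout. Rdh1 had 51.8, 78.5 and 79.8 CPM in the epidermis libraries and 0.188, 0.237, 0.366 and 0.237 CPM in the tongue libraries. Of eicosanoid genes, Pla2g2f, Ptgs1 and Alox12e were higher in epidermis by 6.02, 3.76 and 7.19, and Ptgs2 and Hpgd were higher in tongue. The call of Ptgs2 was lost without epidermis WT 2 or tongue WT 2 or 3 (edgeR adjusted p = 0.0573 to 0.0656). Cyp2b19, an epidermal arachidonic acid oxidase, had 886, 345 and 442 CPM in the epidermis libraries and 0.188, 0.0792, 0.146 and 0.395 CPM in the tongue libraries.

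Cell cycle genes were higher in epidermis in 16 of 24 cases and in tongue in 1, with a largest log2 fold change of 1.39 (Plk1), and Mki67, the proliferation marker, had 265 ± 25.4 CPM in epidermis and 152 ± 15.9 in tongue. The 1 call in tongue was lost without epidermis WT 2 or tongue WT 2, 3 or 4, and 3 were called there without epidermis WT 3. Relative to the shared epithelial genes 0 of the 24 were higher in epidermis and 23 in tongue. The median was -1.22 on that scale and 0.73 with scaling over all genes. The direction thus depended on the scaling, and the epithelial scale also moves any transcript of muscle or stroma to the tongue side. The 23 ribosomal protein genes had 0 calls by edgeR, 0 at an unadjusted p under 0.05 and 0 by DESeq2 or limma-voom, with a median of -0.17. Without epidermis WT 1 their median was 0.18 and 8 were called, all higher in epidermis. Heat shock and immediate early genes went both ways, Atf3 and Hspa8 higher in tongue and Egr3 and Hspa1b higher in epidermis, and the heating of the epidermis before peeling cannot be told apart from the tissue. Core clock genes were called in 8 of 15 cases, Hlf and Bhlhe41 higher in tongue and Cry1, Arntl and Per1 among those higher in epidermis. Without epidermis WT 1, 5 clock genes and not 2 were called higher in tongue, without epidermis WT 2 or tongue WT 1 the number was 4, and without tongue WT 2, 3 or 4, 3 and not 6 were called higher in epidermis. The call of Per1 was lost without epidermis WT 1 or tongue WT 2, 3 or 4 (edgeR adjusted p = 0.055 to 0.113).

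For 8 genes that differed strongly between the wild-type tissues the knockout libraries gave the same directions. Krt10, Flg2, Gata3 and Abca12 had knockout log2 fold changes of 8.12, 11.73, 8.08 and 3.47, and Mylpf, Krt13, Pax9 and Tbx15 had -8.03, -7.19, -7.45 and -6.68. In lists with few or no wild-type calls fewer members had the same sign, 8 of 23 ribosomal protein genes and 4 of 7 mitochondrially encoded genes. Both comparisons used mice of the same age and the same tissue preparation, and no test of a difference between them was made.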

How the data were processed

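RNA-seq had been run on total RNA of epidermis and tongue at postnatal day 1. The labels' protocols give SMARTer V4 amplification, TruSeq v2 libraries and paired NextSeq500 reads, and the submitters' processing notes name STAR 2.5.2a, GRCm38.p3 and mm10. Which tool counted the reads, with what strand setting and annotation, is not given in the sources used here, and the kit does not mark strand, so genes that overlap on opposite strands cannot be told apart. The authors deposited whole-number read counts per gene for 15 libraries.

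The 2 transgene entries (beta-lac and LacZ) were left out. Genes were kept by filterByExpr with a minimum count of 10, scaled by TMM and tested with edgeR 4.0.16 (glmQLFit, robust, and the quasi-likelihood F test) under R 4.3.3, on the 3 wild-type epidermis and 4 wild-type tongue libraries, with Benjamini-Hochberg adjustment over all tested genes and a threshold of 0.05. CPM values are counts scaled to TMM library sizes, mitochondrial RNA included, and levels per length (RPKM) divide CPM by exon length in GENCODE M21, in which 23337 of 23420 genes were found. SE is the log2 fold change divided by the square root of F. Where a tissue had no read, a bound was computed against 3 reads per library. For the epithelial scale, library sizes were set so that the shared epithelial genes had the same mean log2 CPM in every library. Single values were compared by exact permutation tests, two-sided.

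The 68 gene lists, the symbol families and the compared libraries were chosen with earlier results of these data known. Smaller groups, such as the Wnt antagonists, hold chosen members and not every member of a family. Of 1221 listed genes, 1178 were in the table, and the rest were not analysed here. Named genes were the 15 largest changes in each direction without overlap and with at least 5 CPM, up to 5 called genes per list and direction by level, called or opposing factors and receptors, the 10 highest RPKM per tissue, the 2 highest called genes of a family, and listed genes without a call as values. A few others were named after their values were seen, such as the transgene entries, the sex-linked genes and the imprinted genes.

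Alternatives covered RLE scaling, library totals, removal of mitochondrial rRNA, no filter, DESeq2 1.42.0, limma-voom (limma 3.58.1), all 15 libraries, blocks by title number, animal and label range, the A38x libraries alone and each library left out. The title numbers do not pair the wild-type tissues: same-numbered libraries came from different mice and their deviations from the group means correlated at 0.0931, 0.11 and 0.136, while those of the 2 mice that gave both tissues correlated at -0.0476 and 0.0611. The fitting scripts were tested on simulated counts with known changes.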

Additional observations from a re-analysis of the deposited data

Results flagged for a closer look

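Within the 4 tongue libraries, 18 values stood apart from the other 3 by Dixon's ratio, the gap to the nearest library divided by the whole range, taken past its 95% limit. They came from 74 list sums and library measures and from the 297 named genes, and chance alone marks about 1 in 20 such groups. Groups of 3 libraries, as in epidermis, were not tested.

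The summed level of the taste bud list had a ratio of 0.965, with 27.4, 18.1, 17.9 and 18.2 CPM in tongue WT 1, 2, 3 and 4. The summed level of the salivary gland list had a ratio of 0.855, with 18.7, 6.49, 5.27 and 4.42 CPM. Tongue WT 1 was the high library in both. It was also the high library for Ptgs1 (ratio 0.857, 21.8, 10.8, 11.9 and 10.3 CPM), Fgfr2 (0.855, 89.4, 75.7, 77.2 and 77.7 CPM) and Irx3 (0.931, 2.26, 1.11, 1.02 and 1.11 CPM). It was the low library for Plin4 (0.958, 25.4, 51.2, 52.4 and 51.3 CPM), Meox2 (0.898, 17.9, 25.3, 26 and 25.2 CPM), Hspa8 (0.892, 168, 202, 203 and 199 CPM), Plk1 (0.857, 1.79, 2.93, 2.92 and 2.77 CPM) and Serpinb7 (0.866, 6.96, 12.4, 13.2 and 13.3 CPM).

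Cldn1 was low in tongue WT 2 (ratio 0.851, 56.5, 46, 56 and 57.7 CPM), Dkk2 was high in tongue WT 3 (0.871, 13.1, 12.2, 19 and 13 CPM) and Pfkl was high in tongue WT 4 (0.937, 11.8, 11.9, 12 and 15.6 CPM). Awat1, Skint5, Hoxa7, Lipn and Skint7 had a ratio of 1 because 1 tongue library held a single read and the other 3 held none.

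The count table also holds 2 transgene entries, beta-lac and LacZ, which entered no comparison. Both had reads in the wild-type libraries. The beta-lac entry had 114, 216 and 196 reads in epidermis WT 1, 2 and 3 and 481, 478, 491 and 393 in tongue WT 1 to 4, so 114 was the lowest. The LacZ entry had 5, 14 and 6 reads in epidermis and 26, 46, 36 and 42 in tongue, so 5 was the lowest. The knockout libraries lay in the same ranges or near them, with 123 to 593 reads for beta-lac and 9 to 59 for LacZ.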

How the results depend on the processing

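The counts of 5307 and 5233 genes moved by more than 1.5 times in 1 setting, the test against a fold of 2, which called 2261 genes higher in epidermis and 3107 higher in tongue. Leaving out 1 library at a time gave 4598 to 5995 and 4601 to 6175. Of the epithelial genes compared with the shared epithelial genes, 76 were higher in epidermis (74 to 82 with 1 library left out) and 84 higher in tongue (77 to 90). In the knockout tissues, leaving out 1 animal at a time gave 4326 to 5032 and 4398 to 5011. Library totals without scaling factors moved the median log2 fold change of all genes from 0.03 to 0.21 and gave 5886 and 4256 calls, against 5130 and 5472 by DESeq2 and 5115 and 5491 by limma-voom.

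The title number as a replicate block gave 4359 and 4678 calls, and the animal as a replicate block, which rests on the 2 mice that gave both tissues, gave 5526 and 5765. The block by animal gave 71 and 83 epithelial calls and, in the knockout tissues, 5148 and 5005. Every wild-type library with a shared title number correlated best with its own number (0.0931, 0.11 and 0.136), a hint from the data and not from the design, since the same numbers mark different mice. Of the named genes, only the sex-linked Ddx3y and Xist reversed. Ddx3y had log2 fold changes of -0.56 in the A38x libraries alone and -0.55 with the block by animal, and Xist 1.17 and 1.25. All 4 A38x libraries were high in Ddx3y.

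Of the 68 lists, 6 changed the sign of their median in at least 1 of 18 settings. These were core clock (0.13, and -0.24 without epidermis WT 1 or -0.04 without tongue WT 3), ribosomal proteins (-0.17, and 0.07 to 0.21 in 4 settings), barrier alarmins (-0.07, and 0.00 to 0.15 in 3), mitochondrially encoded genes (-0.10, and 0.06 and 0.14 without epidermis WT 3 or 2), salivary gland (-1.95, and 3.61 and 3.40 without tongue WT 1 or 2) and Merkel cell (-2.60, and 1.35 with no filter on low counts). The last 2 had fewer or more genes tested there. Without epidermis WT 1 the alarmin median was -1.24. With 3 and 4 libraries, differences of 2-fold and less can be missed. Of the 297 named genes, 276 were called, and 264 of these kept the call and direction in every setting in which they could be tested. Limits set at 3 reads cover counting error only.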

Other observations

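The largest differences on the tongue side that have not been named so far belonged mostly to muscle. Sln, which encodes the calcium pump inhibitor sarcolipin, had 0.114, 0.151 and 0.304 CPM in the epidermis libraries and 526, 425, 587 and 518 CPM in the tongue libraries. Cav3, the muscle caveolin gene, had 2 reads in all epidermis libraries and 142 ± 13.9 CPM in tongue (SD, n = 4). Mstn, the gene of myostatin, which limits muscle growth, and the water channel gene Aqp4 stood at 79.9 ± 14.6 and 88.9 ± 26.6 CPM in tongue with 3 reads each in epidermis. Dcx, which encodes doublecortin, a microtubule protein best known from young neurons, had no read in epidermis and 29.6, 35, 36.1 and 27.2 CPM in the tongue libraries, at least 149-fold higher. On the epidermis side, Krt12, known as the keratin of the cornea, had 33.2, 51.8 and 37.2 CPM and no read in tongue, at least 167-fold higher. Serpina12, a serine protease inhibitor gene, had 388, 441 and 446 CPM in the epidermis libraries and 0, 0.396, 0.146 and 0.316 CPM in the tongue libraries. Stfa3, a cysteine protease inhibitor gene of the stefin A group, had 435, 1859 and 1950 CPM in the epidermis libraries and 3.85, 3.96, 4.02 and 4.11 CPM in the tongue libraries. Its epidermis level was lowest in WT 1 and lay above every tongue library there too. Calm4, a calmodulin-related gene of differentiating keratinocytes, was among the 10 most abundant transcripts of epidermis per length, at 3408 ± 781 CPM against 395 ± 49.3 (SD, n = 3 and 4).

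H19, an imprinted non-coding RNA gene of fetal tissues, was the most abundant transcript of tongue per length after mitochondrial RNA, with 722, 1666 and 2021 CPM in the epidermis libraries and 11927, 11713, 12316 and 12720 CPM in the tongue libraries. Its neighbour Igf2, the fetal growth factor, had 202, 242 and 274 CPM in the epidermis libraries and 2003, 2052, 1941 and 1897 CPM in the tongue libraries. A list of 12 imprinted genes was then drawn up, after H19 and Magel2 had been seen among the leading genes, so that it is a description only. All 12 were higher in tongue, with a median log2 fold change of -6.25. Dlk1, an inhibitor of fat and muscle differentiation, had 0.911, 0.857 and 3.35 CPM in the epidermis libraries and 206, 223, 182 and 204 CPM in the tongue libraries, and Magel2 had no read in epidermis and was at least 81.1-fold higher in tongue.

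Families defined by their gene symbols add further counts. Keratin-associated protein genes, whose products embed hair keratin filaments, were higher in tongue in 18 of 20 tested cases, with a median log2 fold change of -4.14, or -3.63 with genes at 0 set at their bounds. Krtap13-1 led them with 0.114, 0.504 and 0.609 CPM in the epidermis libraries and 18.5, 55, 44 and 44.2 CPM in the tongue libraries. Collagen genes were higher in tongue in 29 of 41 cases and in epidermis in 4, the latter led by Col17a1 (1.87) and Col7a1 (2.23), whose products anchor the epidermis to the dermis. Sodium channel genes were higher in tongue in 9 of 10 cases and calcium channel genes in 15 of 19, among them Cacng1 and Cacna2d1, subunits of muscle calcium channels, with log2 fold changes of -9.28 and -6.71. All 8 T-box genes tested were higher in tongue. Nuclear genes for mitochondrial ribosomal proteins were higher in tongue in 54 of 80 cases and in epidermis in 2, with a median of -0.80. Of 253 solute carriers 87 were higher in epidermis and 84 in tongue, close to the shares of all genes tested. Slc25a4, the ADP/ATP exchanger of muscle mitochondria, had 17.9, 43.2 and 50.2 CPM in the epidermis libraries and 1023, 985, 1096 and 1065 CPM in the tongue libraries.

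Serpin B genes, intracellular protease inhibitors of epithelia, divided 10 to 7 of 20. Serpinb7 was higher in epidermis by 4.37 on the log2 scale, and Serpinb3a had 85.9, 241 and 241 CPM in the epidermis libraries and 806, 738, 816 and 901 CPM in the tongue libraries. Cadherins and protocadherins were higher in tongue in 37 of 67 cases and in epidermis in 12. Cdh1, the epithelial cadherin, was higher in epidermis by 2.57, and Cdh11, the cadherin of mesenchyme, had a log2 fold change of -6.13. Among chemokines, Cxcl14, which keratinocytes release steadily, had 43.6, 121 and 136 CPM in the epidermis libraries and 1.79, 2.69, 1.98 and 2.77 CPM in the tongue libraries, and Cxcl12, made by stromal cells, was higher in tongue at 42.2 ± 3.64 against 1.75 ± 0.864 CPM.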
